A study of Mus musculus with 6 samples.

Results

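The genes for the proteins of the small subunit of the mitochondrial ribosome were followed in WT and Lsm14b-KO oocytes. They were taken as all rows of the deposited expression table whose symbol is Mrps, a number and at most one of the letters a, b or c, which gave 29 of 24255 genes. The libraries came from fully-grown oocytes (FGOs) at the germinal vesicle (GV) stage, the full-sized immature oocyte arrested in the first meiotic prophase. The WT group and the Lsm14b-KO group had 3 libraries each, and each library was made from 20 oocytes of females given 5 IU of PMSG, a gonadotropin that drives follicle growth, 46 h earlier. Both groups were kept on the same inbred background. The Lsm14b-KO females were homozygous for a reporter-tagged germline insertion in Lsm14b, an RNA-binding protein gene, so the allele is carried by all cells and not by the oocyte alone. The age of the females and the number of females per library are not given in the sources used here. Because each library pools 20 oocytes, a lower level in every oocyte and a loss from some of them cannot be told apart.

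Mitochondria keep a small genome of their own, and its few protein products, all of them subunits of the respiratory chain and ATP synthase, are made on a dedicated ribosome. Its RNA is encoded in the mitochondrion, whereas all of its proteins are encoded in the nucleus, translated in the cytosol and imported. The small subunit carries the mRNA and the decoding centre, and the large subunit joins the amino acids. Many small-subunit proteins have a counterpart in bacteria, and others are found in mitochondria alone. The oocyte stores a very large number of mitochondria, which the early embryo inherits. The symbol Mrps is partly historical. MRPS18A and MRPS30 are placed in the large subunit in structures of the mammalian mitochondrial ribosome, and MRPS36 is now known as a component of the alpha-ketoglutarate dehydrogenase complex.

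Expression was given as FPKM, fragments per kilobase of transcript scaled to the mapped fragments of the library, a value that can be compared between genes because it is scaled to length. Where values of single libraries are listed they follow the order of replicates 1, 2 and 3 of a genotype. The analysis rests on FPKM alone, so the depth is unknown and no counting interval is given. The FPKM of all genes summed to between 1141324 and 1244182 in the WT libraries and between 564671 and 1029728 in the Lsm14b-KO libraries, the lowest sum being that of Lsm14b-KO replicate 2. Lsm14b itself was at 2.77, 3.98 and 1.72 FPKM in WT and listed at 0, 0 and 0.10 FPKM in Lsm14b-KO libraries (limma adjusted p 0.0038, exact permutation p 0.10, two-sided, the smallest that 3 libraries against 3 allow). All 10 oocyte markers looked at reached 1 FPKM in at least 1 library of each group, with summed levels of 43346 to 54497 FPKM in WT and 28108 to 70355 FPKM in Lsm14b-KO libraries. Of 10 cumulus and granulosa cell markers, 2 reached 1 FPKM in a WT library and 3 in a Lsm14b-KO library. Their summed levels were 9.68 to 13.5 FPKM in WT and 6.13 to 9.96 FPKM in Lsm14b-KO libraries, and Amh, Foxl2, Inhba and Ptx3 were at 0 throughout. The 5 red blood cell markers were at 0 in all 6 libraries.

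In WT FGOs the 29 mRNAs spanned a wide range of levels, although most of their products are single-copy parts of one particle. Mrps33, which encodes a mitochondria-specific protein of the small subunit, was the most abundant with WT values of 2865, 2592 and 2107 FPKM. It made up 39.4% to 41.7% of the summed FPKM of the 29 genes in the WT libraries. Mrps21 followed with a mean of 872 ± 112 FPKM (SD, n = 3), then Mrps14 with 490 ± 47.7 and Mrps17 with 474 ± 64.7 FPKM (SD, n = 3 each). The WT ranges of Mrps14 and Mrps17 overlapped, so the order of these 2 is not fixed by the data. With Mrps33 these genes made up 69.1% to 71.3% of the sum. Between 19 and 20 of the 29 genes were at 10 FPKM or more in each WT library. At the other end, Mrps2, Mrps30, Mrps9 and Mrps15 had WT means of 1.39, 0.99, 0.98 and 0.82 FPKM, and their ranges overlapped.

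A pair of members was too low to be tested. Mrps5, which encodes a protein with a bacterial counterpart, was listed at 0 in WT replicates 1 and 2 and in Lsm14b-KO replicate 1, and its highest value was 0.41 FPKM in WT replicate 3. Mrps34, which encodes a mitochondria-specific protein, was listed at 0 in all 3 WT libraries and had 0.90, 0.21 and 0.18 FPKM in the Lsm14b-KO libraries. A value listed at 0 can be a failed estimate, so no fold is given for either gene. The other 27 genes had 1 FPKM or more in some library, as did 6398 genes of the whole table, and these were compared between the genotypes with limma on log2(FPKM + 1).

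**Figure D1:**
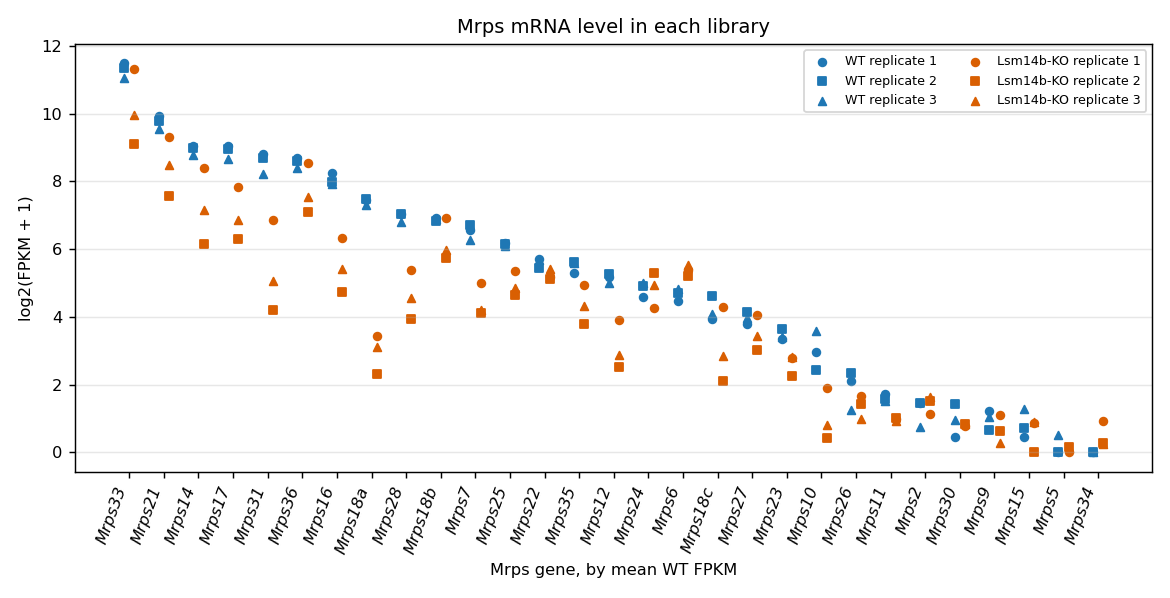
Level of each of the 29 Mrps mRNAs in each library, as log2(FPKM + 1) on the y axis, with genes ordered by mean WT FPKM on the x axis. Blue points are the 3 WT libraries and orange points the 3 Lsm14b-KO libraries, with one marker shape per replicate number. For Mrps18a the 3 orange points lie together far below the blue ones, whereas for Mrps33 the point of Lsm14b-KO replicate 1 lies among the WT points.

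Of the 27 tested Mrps genes, 12 fell in Lsm14b-KO FGOs at an adjusted p under 0.05, and none rose. Over all tested genes 15.2% were called lower and 6.38% higher. At an unadjusted p under 0.05, 14 Mrps genes were lower and 1 was higher in limma. The same threshold was passed by 2518 of the 6398 tested genes, in either direction. These were not counted by direction, so the 14 lower genes have no background of their own. The median log2 fold change of the 27 genes was -1.14, against -0.08 for all 6398 tested genes, and 24 of the 27 had a negative fitted value, as did 53.2% of all tested genes. The 2 sets differ in level, with a median WT level of 44.4 FPKM for the 27 genes and 2.85 FPKM for all tested genes. The log2(FPKM + 1) scale understates the change of low genes, and no background matched for level was computed. In 15 of the 27 the Lsm14b-KO values were all lower than the lowest WT value, which was so for 26% of all tested genes, and in 1, Mrps6, they were all higher than the highest, as in 19.1%. The summed FPKM of the 29 genes was 6199 ± 773 (SD, n = 3) in WT, and the Lsm14b-KO libraries had 2747 ± 1774 (SD, n = 3). No set test was made of the list, and the members were taken up with the fall of the mitochondrial ribosomal protein genes in these libraries already known.

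FPKM depends on what else is in a library, so the same fit was made after other scalings. When all libraries were given the same FPKM sum (TPM scaling), the median of all tested genes shifted by 0.47 on the log2 scale, and calls over the whole table changed from 975 lower and 408 higher to 486 lower and 833 higher. Under TPM scaling 8 Mrps genes were called lower (background 7.60%) and 1 higher, with 20 of 27 fitted values negative and a median of -0.47, which lies -0.86 from the median over the whole tested table. Set against that median the list had -1.06 without scaling, -0.70 after quantile normalization and -0.61 after a correction for transcript length and GC content. Quantile normalization left 9 genes called lower (background 11.5%) and 1 higher, and the length and GC correction left 10 lower (background 12.5%) and 1 higher. These scalings shifted the median of all tested genes by 0.14 and 0.18 and gave 735 lower and 540 higher, and 788 lower and 649 higher calls over the table. All 12 genes kept a negative fitted value in each of them. Among the genes without a call, the fitted value turned positive under TPM scaling for Mrps18b, Mrps22, Mrps27 and Mrps30.

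The calls also depended on single libraries. So did those of the whole table, and its share called lower is given beside each count. Without Lsm14b-KO replicate 1 there were 19 Mrps genes called lower (background 27.3%), among them all 12 of the fit with 6 libraries, and 1 called higher. Without Lsm14b-KO replicate 2 there were 8 (background 10.5%), and without Lsm14b-KO replicate 3 there were 3 (background 4.31%). Without WT replicates 1, 2 and 3 there were 4, 5 and 5 (background 5.16%, 5.22% and 5.94%). Mrps7, Mrps16 and Mrps18a kept their calls in all 6 of these fits and under every other alternative run, 14 in all, and Mrps28 in 13 of 14.

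**Figure D2:**
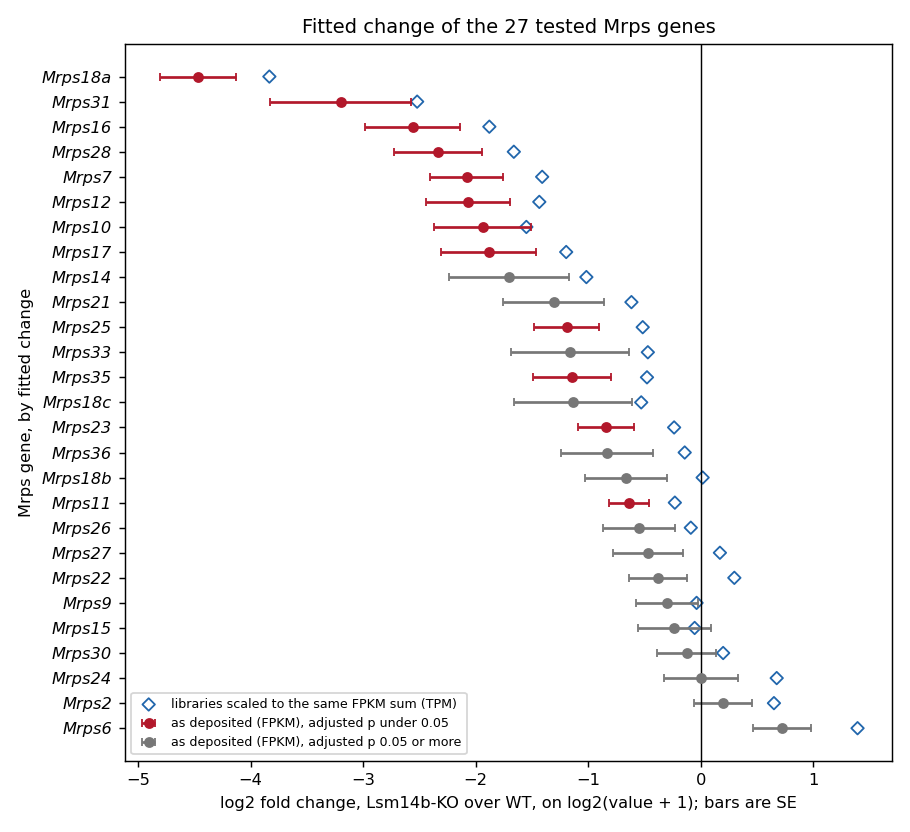
Fitted log2 fold change, Lsm14b-KO over WT, of each of the 27 tested Mrps genes on the x axis (on the log2(value + 1) scale), with genes on the y axis from the largest fall to the highest value. Filled points with bars are the fit to the deposited FPKM and its SE, red where the adjusted p was under 0.05, and open diamonds are the fit after TPM scaling. The 12 red points lie to the left of 0, as do their diamonds, and Mrps18a lies apart at -4.47.

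The largest fall by far was that of Mrps18a (chromosome 17, 46110986 to 46128910, plus strand of GRCm38, which is mm10, a protein-coding gene overlapping 1 gene on the other strand, Rsph9). It had 174, 178 and 157 FPKM in WT and 9.72, 3.92 and 7.65 FPKM in the Lsm14b-KO libraries. The WT mean was 23.9 times the Lsm14b-KO mean. The Lsm14b-KO libraries held 5.74%, 2.31% and 4.51% of the WT mean, so replicate 1, though the highest of them, was also far below WT. Its log2 fold change was -4.47 (SE 0.34, limma adjusted p 0.00066), the sixth lowest of 6398 tested genes (rank 6). It stayed between -4.71 and -4.14 when any one library was left out and was -3.83 under TPM scaling.

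Mrps18a belongs to a family of 3 related genes, all related to a single bacterial ribosomal protein. MRPS18C is the counterpart of the bacterial protein in the small subunit, MRPS18B sits elsewhere in the small subunit, and MRPS18A is in the large one. Mrps18b (chromosome 17, 35910379 to 35916389, minus strand) had 121, 113 and 116 FPKM in WT and 121, 52.8 and 61.3 FPKM in the Lsm14b-KO libraries, so Lsm14b-KO replicate 1 was as high as the WT libraries. Its log2 fold change was -0.67 (SE 0.36, limma adjusted p 0.203), and 1 near-identical pseudogene is annotated. Mrps18c (chromosome 5, 100798627 to 100804471, plus strand) had 14.2, 23.7 and 16.1 FPKM in WT and 18.6, 3.35 and 6.12 FPKM in Lsm14b-KO libraries, again with replicate 1 within the WT range. Its log2 fold change was -1.14 (SE 0.52, limma adjusted p 0.143). Without Lsm14b-KO replicate 1 both were called lower, Mrps18b at -1.03 (limma adjusted p 0.0048) and Mrps18c at -1.74 (limma adjusted p 0.0049).

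A ratio of 2 genes within a library does not depend on how the library is scaled. The ratio of Mrps18a to Mrps18b FPKM was 1.44, 1.57 and 1.35 in WT against 0.080, 0.074 and 0.12 in Lsm14b-KO oocytes. The groups lay far apart, with a mean log2 difference of -4.00 (exact permutation p 0.10, two-sided, the smallest the design allows). The ratio of Mrps18c to Mrps18b was 0.12, 0.21 and 0.14 in WT and 0.15, 0.063 and 0.0998 in Lsm14b-KO libraries. There the groups overlapped (exact permutation p 0.30, two-sided). These ratios were looked at after the levels had been seen.

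To show how these genes differ at their starts, the RefSeq promoter sequences (GRCm38.p6) of the family and of Mrps6, the member with the highest fitted value, are given from 250 bases before the RefSeq start up to the RefSeq start, or to the base before the GENCODE gene start where that lies further upstream, 5′ to 3′ on the gene's strand. Capitals mark a match to the core motif of ETS factors, CCGGAAG, on either strand. The windows are chr17:46110754-46110985 (plus), chr17:35916441-35916690 (minus), chr5:100798509-100798626 (plus) and chr16:92058086-92058269 (plus).
Mrps18a: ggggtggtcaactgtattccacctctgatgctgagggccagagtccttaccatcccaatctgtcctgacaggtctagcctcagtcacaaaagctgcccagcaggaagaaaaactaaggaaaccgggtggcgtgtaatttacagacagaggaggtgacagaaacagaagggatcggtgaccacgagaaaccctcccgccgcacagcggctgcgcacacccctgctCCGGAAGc
Mrps18b: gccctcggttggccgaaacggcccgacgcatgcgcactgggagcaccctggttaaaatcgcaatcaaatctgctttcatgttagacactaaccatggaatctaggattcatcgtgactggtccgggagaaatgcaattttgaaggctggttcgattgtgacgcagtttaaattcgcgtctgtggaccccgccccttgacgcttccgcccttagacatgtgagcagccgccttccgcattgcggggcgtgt
Mrps18c: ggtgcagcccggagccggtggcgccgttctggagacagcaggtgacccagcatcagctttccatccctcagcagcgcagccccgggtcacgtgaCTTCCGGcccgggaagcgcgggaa
Mrps6: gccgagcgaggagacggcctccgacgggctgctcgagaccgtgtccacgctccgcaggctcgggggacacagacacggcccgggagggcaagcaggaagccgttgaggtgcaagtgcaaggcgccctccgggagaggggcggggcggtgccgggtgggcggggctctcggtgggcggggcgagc

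The ETS match lies 26 bases before the RefSeq start in Mrps18a and 156 bases before it in Mrps18c. The core motifs of ETS factors, YY1 and NRF1, factors known at promoters of nuclear genes for mitochondrial proteins, were searched on both strands in the 300 bases from 250 before to 50 after the start, for the 26 members that had a promoter entry. The ETS core was in 11 of them (42.3%), against 21.3% of 4807 tested genes with an entry. The YY1 core AAGATGGC was in 6 (23.1%), against 5.47%, and the NRF1 core (GCGCA, any base, then GCGC) in 3 (11.5%), against 12.8%. Set beside the calls, the ETS core was in 4 of 10 called genes and in 7 of 16 others, and the YY1 core in 4 of 10 and 2 of 16. No test was made of these shares. The ETS match of Mrps18b starts 43 bases after its RefSeq start, still ahead of its GENCODE start, and the YY1 match of Mrps18a starts 11 bases after its RefSeq start, so neither is in the stretches printed. A match is a description of the letters and not a site.

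Mrps31 and Mrps16 had the next largest falls. Mrps31 (chromosome 8, 22411361 to 22429665, plus strand), which encodes a mitochondria-specific protein of the head of the small subunit, had 451, 410 and 298 FPKM in WT and 116, 17.3 and 32.7 FPKM in the Lsm14b-KO libraries. The groups were far apart, but the Lsm14b-KO libraries were unequal, at 30.0%, 4.49% and 8.46% of the WT mean. Its log2 fold change was -3.20 (SE 0.63, limma adjusted p 0.0136). Leaving out a WT library, or Lsm14b-KO replicate 3, ended the call. In the leave-one-out fits the fold change lay between -3.94 and -2.61 and the limma adjusted p reached 0.0733. Mrps16 (chromosome 14, 20389304 to 20393634, minus strand, with 2 near-identical pseudogenes), the counterpart of a bacterial assembly protein that binds ribosomal RNA, had 300.2, 252 and 243 FPKM in WT and 79.1, 25.6 and 41.6 FPKM in Lsm14b-KO libraries. The fitted log2 fold change was -2.56 (SE 0.42, limma adjusted p 0.0069).

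The other strongly lower genes, Mrps28, Mrps7, Mrps12, Mrps10 and Mrps17, all encode proteins with a bacterial counterpart. Mrps28 (chromosome 3, 8802146 to 8923918, minus strand, overlapping 1 non-member gene on each strand) had WT values of 131, 129 and 111 FPKM and Lsm14b-KO values of 40.8, 14.4 and 22.3 FPKM (log2 fold change -2.33, SE 0.39, limma adjusted p 0.0075). Its call was lost without Lsm14b-KO replicate 3 (limma adjusted p 0.0515). Mrps7 (chromosome 11, 115603925 to 115608036, plus strand, overlapping Gga3 and Mif4gd on the other strand) encodes a protein that binds the small ribosomal RNA early in assembly of the head. It had 94.6, 103 and 76.7 FPKM in WT and 30.9, 16.4 and 17.4 FPKM in Lsm14b-KO libraries, with a log2 fold change of -2.08 (SE 0.33, limma adjusted p 0.0060). Mrps12 (chromosome 7, 28739641 to 28741820, minus strand), whose product lines the decoding centre, had 35.2, 37.9 and 31.3 FPKM in WT and 13.9, 4.73 and 6.29 FPKM in Lsm14b-KO libraries, a log2 fold change of -2.06 (SE 0.37, limma adjusted p 0.0100). In Mrps7 and Mrps12 the groups did not overlap, and Lsm14b-KO replicate 1 was the highest of its group. Mrps10 (-1.94, limma adjusted p 0.0201, 1 near-identical pseudogene) was lower in level, with 6.75, 4.38 and 10.97 FPKM in WT against 2.75, 0.35 and 0.76 FPKM. Mrps17 (-1.88, limma adjusted p 0.0205) fell from 523, 499 and 401 FPKM to 228, 77.2 and 116 FPKM. In both, the Lsm14b-KO values lay apart from the WT values. The calls of Mrps12, Mrps10 and Mrps17 were lost in 3, 4 and 4 of the 6 leave-one-out fits, with limma adjusted p values up to 0.0609, 0.0935 and 0.0981.

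The remaining called genes changed less and were less stable. Mrps25, Mrps35 and Mrps23 encode mitochondria-specific proteins, and Mrps11 the counterpart of a bacterial platform protein. Mrps25 (overlapping Nr2c2 on the other strand) had 71.5, 69.4 and 66.9 FPKM in WT and 39.5, 24.1 and 27.7 FPKM in Lsm14b-KO (-1.19, SE 0.29, limma adjusted p 0.0259). Mrps35 had 38.5, 47.9 and 46.9 FPKM in WT and 30.0, 12.8 and 19.2 FPKM in Lsm14b-KO (-1.14, SE 0.34, limma adjusted p 0.0494). In both, Lsm14b-KO replicate 2 was the lowest library. Mrps23 had 9.09, 11.6 and 9.53 FPKM in WT and 5.93, 3.78 and 6.05 FPKM in Lsm14b-KO (-0.84, SE 0.25, limma adjusted p 0.0470). Mrps11 (overlapping Mrpl46 on the other strand) had 2.29, 1.98 and 1.87 FPKM in WT and 0.97, 1.00 and 0.89 FPKM in Lsm14b-KO (-0.64, SE 0.18, limma adjusted p 0.0396). In these genes the groups did not overlap. Among the 6 leave-one-out fits, Mrps35, Mrps23 and Mrps11 were called in 1, the fit without Lsm14b-KO replicate 1, and Mrps25 also without Lsm14b-KO replicate 2. Under TPM scaling none of these 4 was called.

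The most abundant members, Mrps33, Mrps21 and Mrps14, were not called. Mrps14 (-1.70, SE 0.53, limma adjusted p 0.0546) and Mrps21 (-1.31, SE 0.45, limma adjusted p 0.0703, 1 near-identical pseudogene) both encode counterparts of bacterial proteins. Mrps14 had 529, 505 and 437 FPKM in WT and 335, 70.2 and 141 FPKM in the Lsm14b-KO libraries, and Mrps21 had 979, 881 and 755 against 636, 189 and 355 FPKM. In both the groups did not overlap, and the Lsm14b-KO libraries were spread out, with replicate 1 at 68.3% and 73.0% of the WT mean and replicate 2 at 14.3% and 21.7%. Mrps33 (1 near-identical pseudogene) had 2535, 548 and 1003 FPKM in the Lsm14b-KO libraries, the first of them within the WT range, and a log2 fold change of -1.16 (SE 0.53, limma adjusted p 0.138). Mrps36, of the alpha-ketoglutarate dehydrogenase complex and with 4 near-identical pseudogenes, had 375, 136 and 187 FPKM there against a WT mean of 379 ± 36.1 FPKM (SD, n = 3). Its log2 fold change was -0.83 (limma adjusted p 0.162). Without Lsm14b-KO replicate 1, Mrps14, Mrps21, Mrps33 and Mrps36 were called lower at -2.28, -1.74, -1.75 and -1.24 (limma adjusted p 0.0019, 0.0043, 0.0041 and 0.0045). Mrps27 was called there as well, at -0.74 (limma adjusted p 0.0311).

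The members with a positive fitted value were Mrps6, Mrps24 and Mrps2. Mrps6 (chromosome 16, 92058270 to 92112227, plus strand), whose bacterial counterpart pairs with that of MRPS18C on the platform, had 20.97, 24.8 and 27.4 FPKM in WT and 41.0, 36.3 and 45.3 FPKM in the Lsm14b-KO libraries. The groups did not overlap, and Lsm14b-KO replicate 1 was not nearer to WT than the others. The log2 fold change was 0.72 (SE 0.26, limma adjusted p 0.0811). It passed the threshold under TPM scaling (1.39, adjusted p 0.0207), quantile normalization (1.19, adjusted p 0.0224) and the length and GC correction (1.33, adjusted p 0.0101), and without Lsm14b-KO replicate 1 (0.72, adjusted p 0.0314, all in limma). The gene shares its deposited locus with Slc5a3, which lies within it on the same strand and had at most 0.17 FPKM in any library. Gm49711, a near-identical copy, and Gm16310 also overlap it on the same strand, and reads of these genes cannot be told apart from its own where they share sequence. Mrps24 (23.02, 29.1 and 31.2 against 18.3, 38.4 and 29.8 FPKM) and Mrps2 (1.73, 1.76 and 0.70 against 1.19, 1.85 and 2.11 FPKM) overlapped between the groups, with log2 fold changes of 0.0026 and 0.20 (limma adjusted p 0.995 and 0.577).

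By role, 7 of the 15 tested genes with a bacterial counterpart were called lower, with a median log2 fold change of -1.31, and 4 of the 9 tested mitochondria-specific genes, with a median of -0.84. The share called lower among all tested genes was 15.2%. Both counts depended on the processing. Those with a bacterial counterpart and the mitochondria-specific ones had 6 and 1 called lower under TPM scaling (background 7.60%). They had 7 and 1 after quantile normalization (background 11.5%) and 6 and 3 after the length and GC correction (background 12.5%). When one library was left out they had 2 to 10 and 0 to 7 (background 4.31% to 27.3%). Of the 3 genes whose products are placed elsewhere, Mrps18a was called, and Mrps30 and Mrps36 were not. The members were also split by level. Of the 20 tested members with a mean of at least 5 FPKM over the 6 libraries, 10 were called and the median was -1.18. Of the 7 below it, 2 were called and the median was -0.30, on a scale that understates the change of low genes. Across the 27 tested members Spearman's rho between mean FPKM and log2 fold change was -0.58. It carries no test and was not computed for all tested genes. The share of all tested genes called at each of these levels was not computed, so the split has no background of its own.

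The 3 Lsm14b-KO libraries were ordered in the same way for many members. The value in Lsm14b-KO replicate 1 was above that in replicate 3, and that in turn above that in replicate 2, in 17 of the 27 tested genes, which was so for 33.4% of all tested genes. This order was not particular to the members. It was found in 30 of the 46 tested large-subunit genes (Mrpl) and in 18 of the 30 small-subunit genes of the cytosolic ribosome (Rps). The median difference of the 27 genes from the WT mean was -0.54, -1.48 and -1.17 on the log2 scale in the Lsm14b-KO libraries, beside -0.04, -0.14 and -0.07 for all tested genes. After TPM scaling it was -0.34, -0.70 and -0.47, beside 0.09, 0.59 and 0.45. The same order was found in the FPKM sums of these libraries, 1029728, 564671 and 676656, and its part in the result was not tested. In Lsm14b-KO replicate 1, 16 of the 27 genes lay below the lowest WT value, and in replicates 2 and 3 there were 22 each. The matching share of all tested genes in each library was not computed, so these counts have no background.

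**Figure D3:**
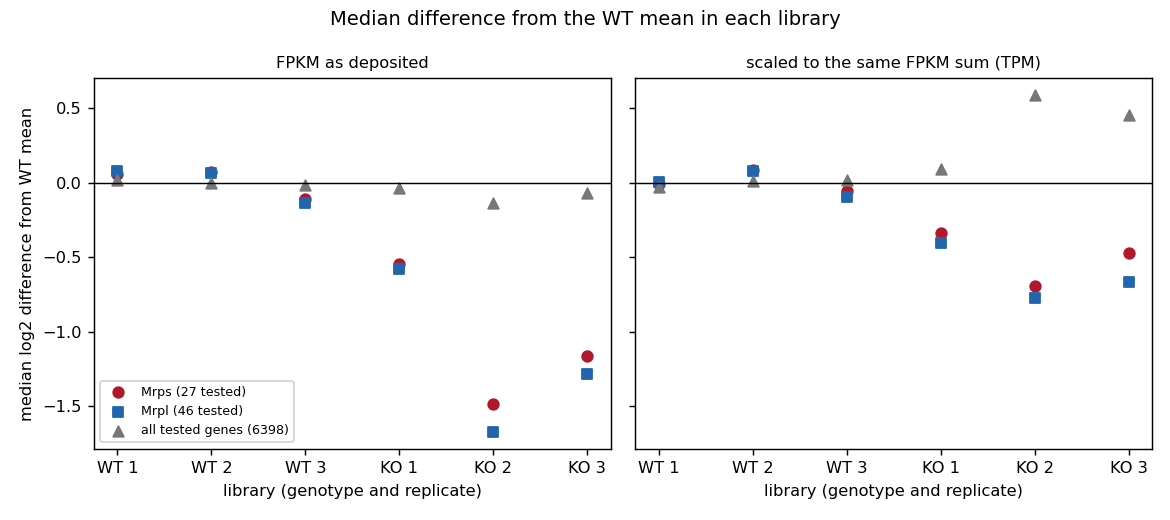
Median log2 difference from the WT mean (y axis, on log2(value + 1)) in each of the 6 libraries (x axis), for the 27 tested Mrps genes, the 46 tested Mrpl genes and all 6398 tested genes. The left panel uses the deposited FPKM and the right panel values scaled to the same FPKM sum. Mrps and Mrpl medians run together and lie below 0 in all 3 Lsm14b-KO libraries in both panels, at -0.54 for Mrps in Lsm14b-KO replicate 1 and -1.48 in replicate 2 with the deposited FPKM.

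Transcript length was set against the change, since shorter transcripts were lower in the Lsm14b-KO libraries as a whole. Over 6321 tested genes with a length in the annotation, Spearman's rho between length and log2 fold change was 0.36. For the 27 Mrps genes it was 0.033 with transcript length and 0.30 with coding length, a length chosen after seeing the data. These are correlations across genes of the same 6 libraries and carry no test. The transcripts of the 29 members were short, with a median of 1197 nt against 2259 nt for tested genes. Those called lower had a median of 1306 nt and those not called 1107 nt. The largest fall, Mrps18a, was of an 884 nt transcript, but Mrps25 and Mrps35 also fell, with 6073 and 4162 nt, and Mrps6, with the highest fitted value, has 846 nt.

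By length class, the 8 members from 500 to 1000 nt had a median log2 fold change of -0.98, where all 805 tested genes of that class had -0.61. For the 8 members from 1000 to 1500 nt it was -0.75, beside -0.44 for 947 genes, and for the 3 members from 1500 to 2000 nt it was -2.08, beside -0.16 for 889 genes. The 3 members from 2000 to 3000 nt had -1.70, beside 0.03 for 1302 genes, and the 3 of 4000 nt or more had -1.14, beside 0.29 for 1314 genes. The single member below 500 nt, Mrps21, had -1.31, beside -0.74 for 143 genes, and the single member from 3000 to 4000 nt, Mrps30, had -0.12, beside 0.24 for 921 genes. After the per-library correction for length and GC content, Mrps18a, Mrps31, Mrps16, Mrps7 and Mrps28 had log2 fold changes of -3.92, -2.74, -2.56, -2.0 and -1.69. The lengths come from GENCODE vM21, whereas the annotation behind the deposited FPKM is not given in the sources used here, so a member's length may not be the one used to compute its FPKM.

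**Figure D4:**
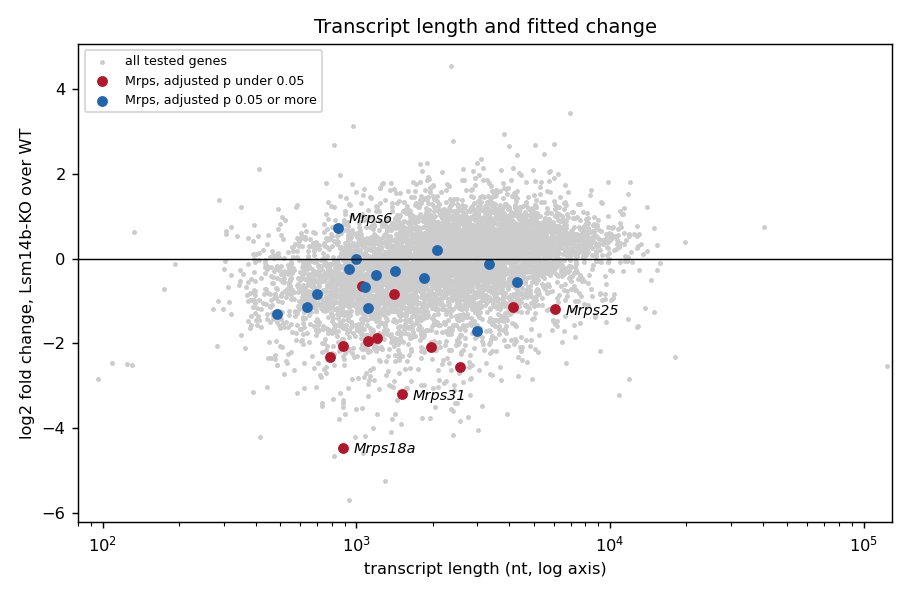
Transcript length in nt (x axis, log scale) against the fitted log2 fold change, Lsm14b-KO over WT (y axis), for all tested genes with a length (grey) and the 27 tested Mrps genes, red where the adjusted p was under 0.05 and blue otherwise. Grey points drift upward with length (rho 0.36 over 6321 genes), and the Mrps points do not (rho 0.033). Mrps25, with 6073 nt, lies at -1.19.

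The closest group, the large-subunit genes with the symbol Mrpl, had 22 of 46 tested genes called lower and 1 higher, with a median log2 fold change of -1.26. Under TPM scaling these were 16 lower and 2 higher, with -0.68. The small-subunit genes of the cytosolic ribosome (Rps) had 4 of 30 called lower and 1 higher, with a median of -0.64. That median became -0.010 with TPM scaling and 0.10 after the length and GC correction, which gave the Mrpl genes -1.08. Measured from the median of all tested genes, Rps lay at -0.56 without scaling, -0.41 with TPM scaling and -0.00014 after the correction. The Mrpl list lay at -1.18, -1.07 and -1.18 in the same order. The difference between these lists was not tested. Like the members, both lists had counts that were sensitive to single libraries. Without Lsm14b-KO replicate 1 there were 33 Mrpl and 16 Rps genes called lower (background 27.3%). Without Lsm14b-KO replicate 3 there were 10 and 1 (background 4.31%).

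The other genes of mitochondrial translation were mostly low in FGOs. Of the 4 small-subunit proteins with other symbols, Chchd1 fell, from 116, 125 and 98.5 FPKM in WT to 56.3, 17.3 and 34.2 FPKM in Lsm14b-KO libraries (log2 fold change -1.77, limma adjusted p 0.0259). Aurkaip1 (0.022, limma adjusted p 0.957) and Dap3 (0.33, limma adjusted p 0.368) were not called, and Ptcd3 was below 1 FPKM in every library. Of 10 genes for assembly of the small subunit or modification of its RNA, 4 were tested and 2 called. Tfb1m, a methylase of the small ribosomal RNA, fell from 15.1, 15.8 and 16.99 FPKM to 8.12, 5.46 and 6.25 FPKM, and Mettl15, another such methylase, from 4.19, 3.797 and 4.20 FPKM to 2.56, 1.51 and 1.56 FPKM (log2 fold changes -1.17 and -0.83, limma adjusted p 0.0146 and 0.0302). Under TPM scaling neither of these 2 was past the threshold (limma adjusted p 0.116 and 0.275). Nsun4, another RNA methylase of the mitochondrial ribosome, was picked out after its values were seen. It had 8.30, 7.96 and 9.57 FPKM in WT and 10.3, 32.3 and 23.4 FPKM in Lsm14b-KO, with no overlap (1.13, SE 0.40, limma adjusted p 0.0763, and 1.78 under TPM scaling, limma adjusted p 0.0531). Its 1 call in the leave-one-out fits was as higher, without Lsm14b-KO replicate 1. Mterf4, a partner of NSUN4, had -0.29 (limma adjusted p 0.521). Of 11 mitochondrial translation factors, 5 were tested and 1 was called, the release factor gene Mtrf1. It had 16.9, 11.8 and 12.5 FPKM in WT and 5.43, 1.05 and 1.59 FPKM in Lsm14b-KO libraries, a log2 fold change of -2.17 (SE 0.42, limma adjusted p 0.0128), and was still called under TPM scaling (-1.66, limma adjusted p 0.0199). Chchd1, Tfb1m and Mtrf1 were each called in 2 of the 6 leave-one-out fits, and Mettl15 in 1.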

How the data were processed

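RNA-Seq values of 6 libraries, 3 WT and 3 Lsm14b-KO, were analysed, with groups and replicate numbers from the sample titles. Per the labels, the authors amplified RNA by Smart-seq2, aligned reads to mm10 with TopHat2 (2.0.13) and computed FPKM with Cufflinks (2.2.1). The sample labels and the series' design text name different library kits, so none is given here. The deposited FPKM values sum differently in each library. The table also holds a fold change, a p-value and a q-value from the authors' Cuffdiff comparison, which were not used.

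Values were analysed as log2(FPKM + 1) in R 4.3.3 by the linear models of limma 3.58.1, moderated with a trend on mean level, for the genes that reached 1 FPKM in any library. The model held genotype alone, with Benjamini-Hochberg adjustment over 6398 genes, two-sided, at 0.05. Nothing states that the 3 libraries of a group came from separate animals, so p-values measure only the spread between these libraries. All members could be named, in full those called, the 3 highest in WT, the 3 next by adjusted p and those with a positive fit. The members and lists were chosen with earlier results of these data known. Positions, transcript lengths (found for 98.8% of tested genes, the longest transcript with a RefSeq match) and overlaps are from GENCODE vM21 (GRCm38). Near-identical copies were found with blastn 2.17.0 at 95% identity over at least 200 nt. Neither source says whether libraries were stranded, so reads of overlapping genes cannot be told apart. The alternatives were a pseudocount of 0.1, 2 other filters, 3 scalings or corrections, no trend, a replicate block and leaving out each library.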

Additional observations from a re-analysis of the deposited data

How the results depend on the processing

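The fall of Mrps18a, Mrps16, Mrps7 and Lsm14b kept its call under all 14 alternatives. The number of Mrps genes called lower was 12, where 975 of 6398 tested genes were. It was 7 without a filter on low values, where 542 of 14325 tested genes were called lower. It was 3 to 19 when one library was left out, where 276 to 1747 of 6398 genes were. Under the other alternatives it was 8 to 12, where 486 to 973 genes were called lower of 5008 to 6398 tested. The number called higher, 0, was 1 under TPM scaling, quantile normalization and the length and GC correction, and 0 to 1 when one library was left out, the gene being Mrps6. The median log2 fold change of the members, -1.14, was -0.47 under TPM scaling, -0.63 after quantile normalization, -0.50 after the length and GC correction, and -1.39 to -0.66 when one library was left out. Spearman's rho of length and fold change, 0.033, was 0.30 with coding length, -0.23 after the length and GC correction and -0.013 to 0.080 when one library was left out. Over the whole table the 1383 calls became 720 without a filter and 315 to 2898 when one library was left out.

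Single members without a call changed sign. Under TPM scaling these were Mrps18b (0.018), Mrps22 (0.30), Mrps27 (0.17) and Mrps30 (0.20), after quantile normalization Mrps22 (0.14), and after the length and GC correction Mrps15 (0.32), Mrps22 (0.20) and Mrps9 (0.082). When one library was left out, Mrps15 ran from -0.42 to 0.058, Mrps2 from -0.031 to 0.35, Mrps24 from -0.23 to 0.29 and Mrps30 from -0.36 to 0.11. The cause of these changes was not tested.

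Whether same-numbered libraries were paired cannot be settled with 3 libraries per group. Deviations of same-numbered libraries from their group means correlated at 0.19, -0.13 and 0.018 for replicates 1, 2 and 3. For replicate 1 the best match was the library of its own number, and for replicates 2 and 3 it was not. With the number as a block, 9 members were called lower, 8 of them among the 12. Over the 6398 tested genes 891 were then called lower and 353 higher, 1244 in all. Depth is unknown, so values near 1 FPKM are the least certain.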
